A study of Mus musculus with 4 samples.

Results

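Sim1 neurons were chosen by their UMI counts, as neuronal nuclei from micropunches of the paraventricular nucleus (PVN) of the mouse hypothalamus that carried transcripts of the transcription factor gene Sim1 and little or no sign of a neuroendocrine peptide or of GABA. A nucleus had to hold at least 2000 unique molecular identifiers (UMIs, 1 per captured RNA molecule), at least 500 genes, at most 5% mitochondrial UMIs and at least 5 of 7 neuronal genes. It then needed at least 1 Sim1 UMI, at least 2 UMIs of Sim1 and Otp together, under 10 of Oxt and Avp together, under 2 of Crh, under 2 of Trh and at most 1 of Gad1, Gad2 and Slc32a1 together. This rule selected 369 of 31109 barcodes. Each library pooled the punches of 5 PVNs from male C57Bl6 mice, aged 10 weeks in the sample labels and 10 to 12 weeks in the series text. There were 2 libraries at zeitgeber time 8 (ZT8, hours after lights on) and 2 at ZT20, with no other treatment named. The series compares these 2 times. Nuclei were isolated on a sucrose gradient and sequenced with a droplet assay for transcript 3' ends.

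SIM1 is a bHLH-PAS transcription factor that acts with ARNT2, and together with the homeodomain factor OTP it is required for the PVN to form its neuroendocrine cells. POU3F2 (BRN2) acts downstream of SIM1 in that lineage, and Brs3 encodes an orphan bombesin-like receptor found on PVN neurons that affect feeding. Most PVN neurons are glutamatergic and use the vesicular transporter encoded by Slc17a6. Sim1 is also active in parts of the amygdala and of the posterior hypothalamus, so it does not by itself mark the PVN. In the mouse build mm10, with GENCODE M21 gene models, Sim1 lies at chr10:50894754-50989152 on the plus strand, Otp at chr13:94875602-94885130 on the plus strand and Pou3f2 at chr4:22482780-22488366 on the minus strand; the counts are per gene, so no exon or UTR is resolved.

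The ZT8 libraries held 57970649 and 69223344 UMIs and the ZT20 libraries 63558166 and 61933800. ZT8 replicates 1 and 2 gave 29 and 40 Sim1 neurons, and the ZT20 replicates 161 and 139. Their median depth was 13038 and 14972.5 UMIs per nucleus at ZT8 against 12798 and 12431 at ZT20. Summed over nuclei, the ZT8 libraries gave 423406 and 650032 UMIs and the ZT20 libraries 2295756 and 1918093, so values at ZT8 rest on far fewer molecules. Nothing in the labels says that libraries of 1 time came from separate days, and p-values measure the spread between these pools. Libraries shared 10 to 25 barcodes pairwise, and 0 of these belonged to Sim1 neurons in both libraries.

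Sim1 neurons made up a larger share of neurons in both ZT20 libraries. The share was 0.861% and 1.05% at ZT8 and 4.07% and 3.58% at ZT20, and the exact 95% binomial intervals, which cover counting error only, reached up to 1.42% at ZT8 and down to 3.02% at ZT20. The means were 0.954% ± 0.131 and 3.82% ± 0.344 (SD, n = 2 each), a difference of 2.87 percentage points. An exact two-sided permutation test over libraries gave p = 0.33, the smallest that 2 against 2 allows. Other classes moved at the same time. Thalamic-like neurons (high Tcf7l2) made up 44.5% and 43.9% of neurons at ZT8 but 23.4% and 22.6% at ZT20, and Sim1 neurons with Oxt, Avp, Crh or Trh 0.0890% and 0.183% against 0.834% and 1.06%. Among neurons outside the thalamic-like class, Sim1 neurons made up 1.55% and 1.86% at ZT8 and 5.31% and 4.62% at ZT20. Which tissue each punch took and the time of day cannot be told apart in these shares. Thinning each nucleus to 5000 UMIs before selection left 0.688% and 0.639% at ZT8 and 2.76% and 2.34% at ZT20.

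**Figure D1:**
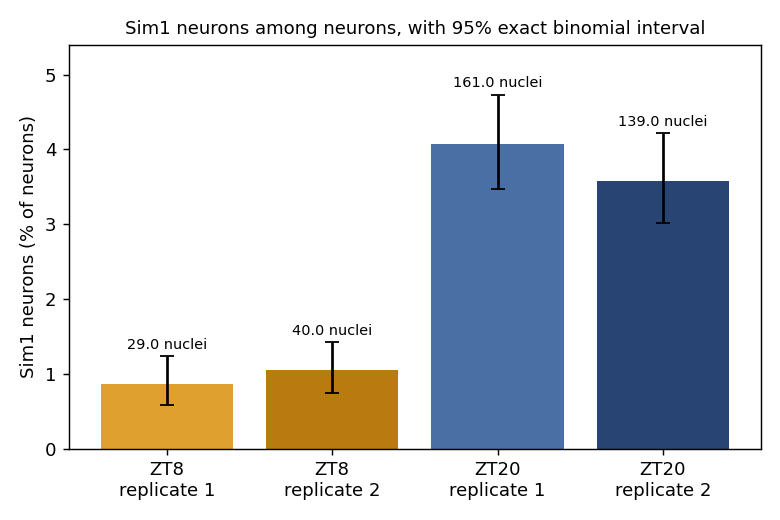
Sim1 neurons as a percentage of neurons in each of the 4 libraries, with exact 95% binomial intervals as bars and the number of nuclei above each. The ZT20 libraries stand at 4.07% and 3.58%, and the ZT8 libraries at 0.861% and 1.05%.

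The markers only partly bore out the PVN label. At least 1 Otp UMI was found in 92 of 369 Sim1 neurons: 24.1% and 15% of those at ZT8 and 26.7% and 25.9% at ZT20. Pou3f2 was found in 80, and Brs3 in 6, with 0 at ZT8. In 221 of 369 (59.9%) no UMI of Otp, Pou3f2 or Brs3 was seen. Otp is part of the rule, so its share is a description. In oligodendrocyte nuclei, which should lack these genes, Otp was seen in 0.304% and 0% of nuclei at ZT8 and in 0.855% and 4.57% at ZT20, at median depths of 2618 to 2920 UMIs. Pou3f2 was seen there in 1.07% to 2.56%. The shares in Sim1 neurons stood above these, but their nuclei were also deeper, with medians of 12431 to 14972.5 UMIs. Nuclei just outside the rule, with a single Sim1 UMI and no Otp, numbered 19, 14, 72 and 70 in ZT8 replicates 1 and 2 and ZT20 replicates 1 and 2. Nuclei just inside, at the minimum of 2 Sim1 and Otp UMIs, numbered 7, 11, 51 and 29.

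Ebf3, a transcription factor gene active in other diencephalic neurons too, was found in 139 of the 369 Sim1 neurons. Of the 277 Sim1 neurons without an Otp UMI, 41.5% had Ebf3, against 26.1% of the 92 with one. Because much of the population lacked the second PVN markers, these nuclei are called Sim1 neurons throughout, by the rule that chose them. Most carried the glutamatergic marker Slc17a6, which was detected in 96.6% and 87.5% at ZT8 and 90.7% and 90.6% at ZT20. In the shallower oligodendrocyte nuclei it was detected in 26.9% to 38.6%. The rule had removed nuclei with more than 1 UMI of Gad1, Gad2 and Slc32a1 together, so these shares are a description.

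**Figure D2:**
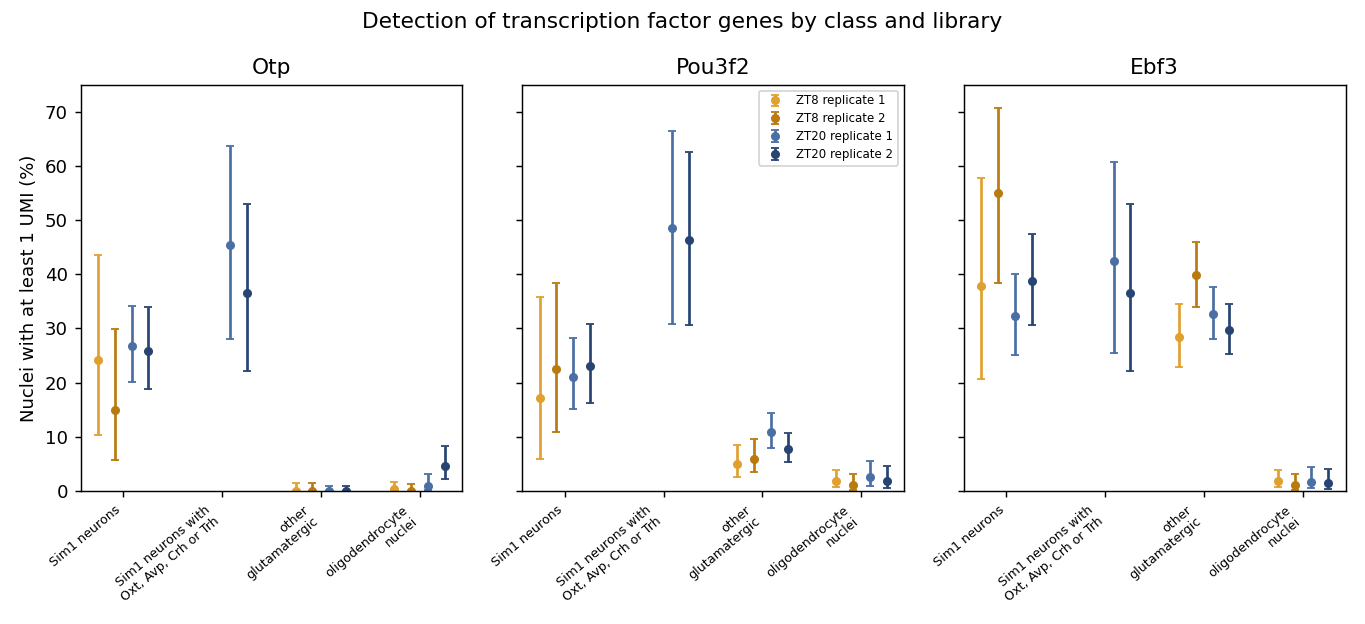
Share of nuclei with at least 1 UMI of Otp, Pou3f2 and Ebf3 in 4 classes, with exact 95% binomial intervals; points are libraries, and classes with under 10 nuclei in a library are not drawn. Pou3f2 in Sim1 neurons lies between 17.2% and 23.0%, and in the Sim1 neurons with Oxt, Avp, Crh or Trh at 48.5% and 46.3% at ZT20.

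Oxt UMIs were found in 67.7% and 57.6% of Sim1 neurons at ZT20, but also in 58.1% and 60.3% of oligodendrocyte nuclei, and in 6.90% and 12.5% against 8.82% and 13.2% at ZT8. The rule removed nuclei with 10 or more Oxt and Avp UMIs, and oligodendrocyte nuclei were shallower (medians of 2618 to 2920 UMIs), so these shares are a description and no comparison is drawn from them.

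Clustering divided the 369 nuclei into 11 groups, described here without a test because the clustering used the same genes. Cluster 1 (61 nuclei) was led by Nfib, Ndnf, Col11a1 and Nfia, with Ebf3 in 72.1% of nuclei and Otp in 4.92%. It held 44.8% and 35.0% of the Sim1 neurons at ZT8 and 12.4% and 10.1% at ZT20. Cluster 5 (33 nuclei) was led in CPM by Reln, encoding the extracellular glycoprotein reelin, and Slc18a2. Its leading genes included Th, the gene of tyrosine hydroxylase, Ddc and Foxp2. Slc18a2 was found in 27.3% of its nuclei and 11.9% of the other Sim1 neurons, Th in 24.2% and 1.49%, and Ddc in 30.3% and 12.5%. Reln was found in 78.8% of the nuclei of cluster 5 and Otp in 63.6%. Cluster 3 (47 nuclei) was led in CPM by Ebf2, Sst (somatostatin) and Kcnh8, with Otp in 38.3%. Sst was found in 29.8% of its nuclei and 29.5% of the other Sim1 neurons, and Ebf2 in 23.4% and 10.2%. Cluster 2 (58 nuclei) was led in CPM by Cartpt, which encodes the CART peptide and was found in 25.9% of its nuclei and 20.9% of the others. Cluster 9 (19 nuclei), led by Tns1 and by Agtr1a, the angiotensin II type 1a receptor, held 0 nuclei at ZT8 and had Pou3f2 in 47.4%. Clusters 4 and 7 were led in part by glial genes, Mobp and Mbp in cluster 4 and Slc1a3, Apoe and Gja1 in cluster 7. The thalamic markers Vav3 and Lef1 were also among the leading genes of cluster 4. Tcf7l2 was in 80.5% of its nuclei, at 306 CPM, the highest of the 11 clusters, and its median depth was 20413 UMIs. Clusters 4 and 7 held 12 and 10 of the nuclei with the highest doublet scores, from 41 and 26 nuclei. Cluster 7 held 20.7% and 15% of Sim1 neurons at ZT8 against 4.97% and 4.32% at ZT20.

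**Figure D3:**
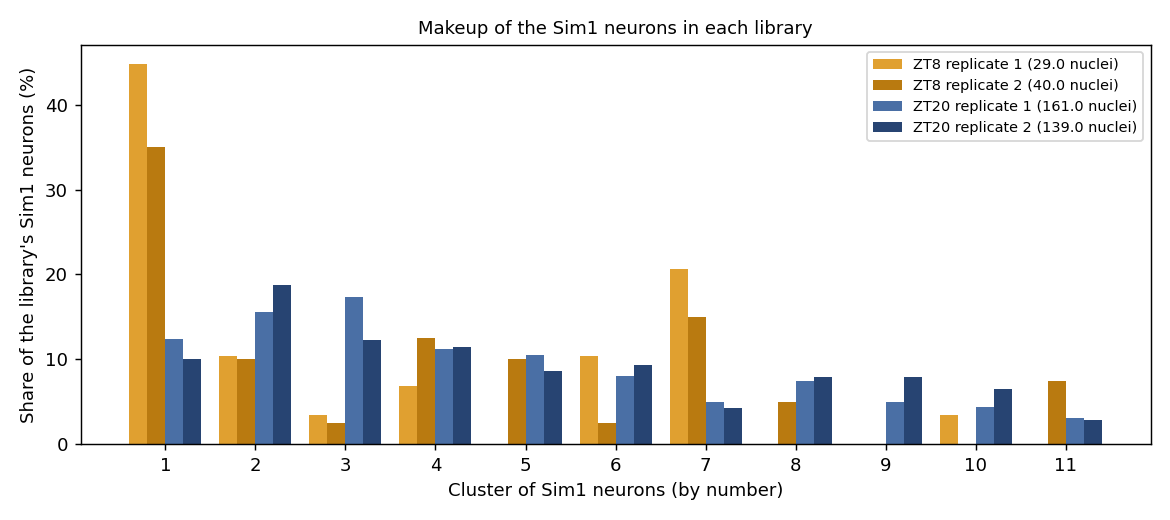
Share of each library's Sim1 neurons that fell in each of 11 clusters (bars, by library). Cluster 1 holds 44.8% and 35.0% of the Sim1 neurons at ZT8 against 12.4% and 10.1% at ZT20, while cluster 9 has none at ZT8.

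Compared with other glutamatergic neurons of the same libraries, which had no Sim1 or Otp UMI and at most 1 Tcf7l2 UMI, Sim1 neurons had more Tox, Pou3f2, Ghr and Kcnip1 and much less of the posterior hypothalamic genes Lmx1a and Lmx1b. Values are CPM, the UMIs of a gene summed over the nuclei of a class in 1 library and scaled by the class's total there to a common size, and tests are edgeR's quasi-likelihood test with the library as a factor and Benjamini-Hochberg adjustment over 13029 genes. Of these, 127 were higher and 141 lower in Sim1 neurons at an adjusted p under 0.05 (2.06% called in either direction, 0.975% higher and 1.08% lower). Sim1 neurons had no upper limit on Tcf7l2 and no lower limit on Slc17a6 or Slc17a7, whereas the comparison class had both. With the same limit of at most 1 Tcf7l2 UMI the calls were 104 higher and 151 lower, 169 of them among the 268. For Sim1 neurons with at least 1 Slc17a6 UMI they were 131 higher and 133 lower.

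Tox, a nuclear HMG-box factor gene, was at 453, 418, 448 and 457 CPM in Sim1 neurons (in the order ZT8 replicates 1 and 2, ZT20 replicates 1 and 2) and at 186, 147, 182 and 213 CPM in other glutamatergic neurons. The log2 difference was 1.30 (SE 0.0773, edgeR adjusted p = 1.87e-12). All Sim1 values lay above all comparison values. Pou3f2 was at 14.2, 18.5, 20.04 and 27.1 CPM in Sim1 neurons, in the same order, and 6.49, 7.04, 10.1 and 9.73 in the comparison class. Its log2 difference was 1.26 (SE 0.219, edgeR adjusted p = 0.000515). The rule did not read Pou3f2, and it was higher in 4 of 4 libraries.

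Of 18 PVN transcription factor genes in the list used, 10 were tested, 1 was higher (Pou3f2) and 3 were lower, with Zfhx3 and Zfhx4 among them. Zfhx3, a zinc finger homeobox gene, was lower by 0.49 on the log2 scale (edgeR adjusted p = 0.000205), but not when cluster 1 was left out (log2 difference -0.17, adjusted p = 0.743). The median log2 difference of the list was -0.32, against 0.00011 over all genes tested.

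Among 22 hormone and stress receptor genes, 18 were tested and 2 were higher. Ghr, the growth hormone receptor gene, was at 158, 178, 259 and 240 CPM in Sim1 neurons and 98.5, 103, 94.1 and 100.7 in other glutamatergic neurons, a log2 difference of 1.15 (SE 0.108, edgeR adjusted p = 6.14e-06). The groups did not overlap. Nr3c2, the mineralocorticoid receptor gene, was higher by 0.37 on the log2 scale (edgeR adjusted p = 0.00329), and lost the call without ZT20 replicate 2 (adjusted p = 0.0653). Of 16 feeding and melanocortin receptor genes 9 were tested, and 0 were called by edgeR or by DESeq2, with 2 at an unadjusted p under 0.05.

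Of 20 potassium channel genes, all tested, 3 were higher and 1 lower. Kcnip1, a KChIP subunit of A-type channels, was at 508, 343, 366 and 449 CPM in Sim1 neurons against 193, 226, 233 and 241, a log2 difference of 0.88 (edgeR adjusted p = 0.000853). Kcnip4 (0.59) and Kcnc2, a fast delayed-rectifier channel gene (0.53), were also higher on the log2 scale. Kcnip2 was lower by 0.63, a call kept only without ZT8 replicate 1 (adjusted p up to 0.286, without ZT20 replicate 2). Of 20 glutamate transmission genes, 18 were tested, 3 were higher (Grik1, Grin3a and Grid1) and 2 lower (Grik2 and Grm5). Grik1, a kainate receptor subunit gene, was at 612, 492, 530 and 434 CPM against 395, 353, 333 and 256, a log2 difference of 0.65 (edgeR adjusted p = 8.6e-07). Grik2 was lower by 0.44. Grm5 lost its call without ZT20 replicate 2 (adjusted p = 0.0523), and Grin3a turned to -0.12 among the Sim1 neurons with an Otp UMI.

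Of 5 posterior hypothalamic markers, 3 were tested and 2 were lower, Lmx1a and Lmx1b. Lmx1a, a LIM homeodomain gene, was at 4.72, 4.62, 3.92 and 4.17 CPM in Sim1 neurons against 105, 97.1, 111 and 111 (log2 difference -4.68, SE 0.179, edgeR adjusted p = 2.62e-17). Lmx1b was at 0, 1.54, 0.436 and 0.521 CPM against 22.3, 24.3, 29.98 and 23.9. Nr4a2, a nuclear receptor gene, was at 0, 9.23, 6.53 and 8.34 against 36.9, 44.7, 70.7 and 55.8. Ret, encoding a receptor tyrosine kinase, was lower by 2.71 on the log2 scale. Of 28 neuropeptide and co-released factor genes, 22 were tested, 0 were higher and 4 were lower. Adcyap1, encoding the peptide PACAP, was at 21.3, 29.2, 56.6 and 48.5 CPM against 58.4, 66.9, 81.2 and 84.4 (log2 difference -0.77, edgeR adjusted p = 0.000177). Tac1, Hcrt and Nos1 were the others called. Tac1 lost its call without ZT20 replicate 1 (adjusted p = 0.255). Nos1 lost its call whichever library was left out, with adjusted p up to 0.419. Hcrt passed the filter on low counts only with both ZT20 libraries, and it was at 17.8 and 16.8 CPM in oligodendrocyte nuclei at ZT20, above the 7.84 and 6.78 of Sim1 neurons.

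**Figure D4:**
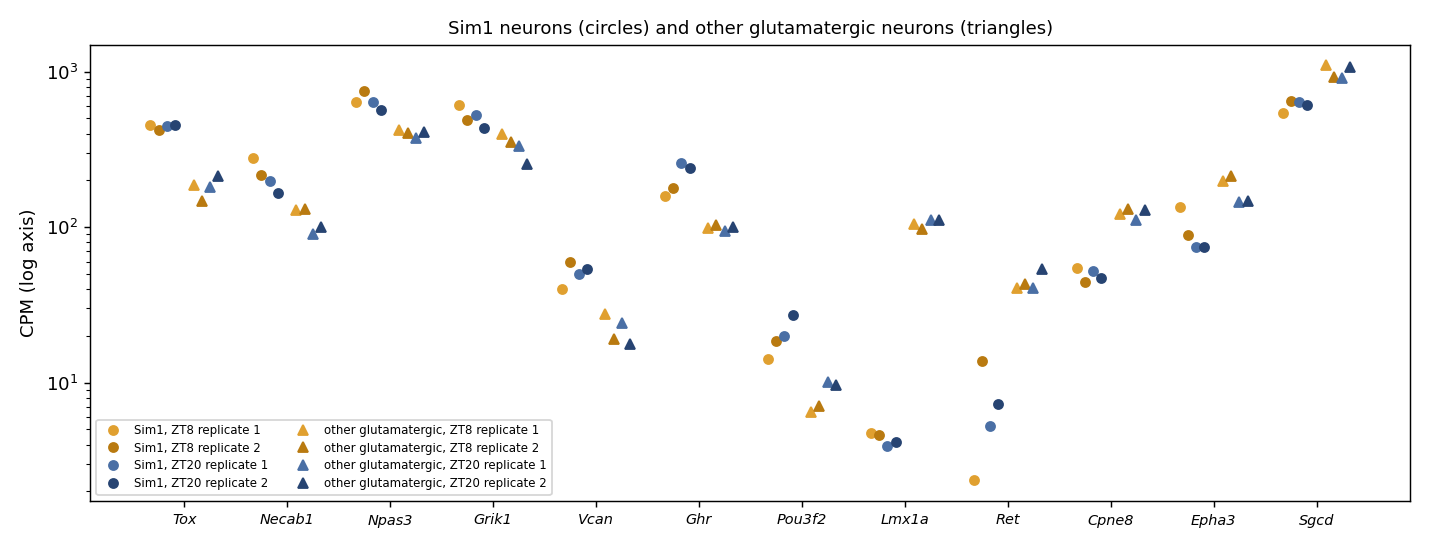
CPM of 12 genes on a log axis in Sim1 neurons (circles) and other glutamatergic neurons (triangles), 1 point per library. For Tox the circles lie at 418 to 457 CPM above the triangles, and for Lmx1a the circles lie below 5 CPM with the triangles near 100.

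Sim1 neurons were also set against Sim1 neurons that carried Oxt, Avp, Crh or Trh. Only the 2 ZT20 libraries held at least 10 nuclei of both classes (33 and 41 of the peptide neurons), so the comparison rests on 2 libraries with 1 residual degree of freedom. edgeR called 325 genes higher and 285 lower in Sim1 neurons of 11426 tested (5.34% in either direction, 2.84% higher and 2.49% lower), and DESeq2 called 99 in all. Rgs6, a regulator of G-protein signalling, was at 324 and 406 CPM in Sim1 neurons and 53.6 and 55.6 in the peptide neurons (log2 difference 2.76, edgeR adjusted p = 6.99e-29). Htr2c, the serotonin 2C receptor gene, was at 470 and 382 CPM against 136 and 70.0 (log2 difference 2.10). Caprin2, an RNA-binding protein gene, was at 35.3 and 30.8 against 346 and 262 (log2 difference -3.18).

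Pou3f2 was lower in the Sim1 neurons than in the peptide neurons, at 20.04 and 27.1 CPM against 75.9 and 62.8 (log2 difference -1.53, edgeR adjusted p = 1.79e-06). Foxp2 was at 233 and 135 CPM against 603 and 436 (log2 difference -1.51). Among hormone and stress receptors, Prlr was higher and Ghr, Esr1, Thrb, Esr2 and Oprk1 were lower, of 18 tested; DESeq2 called 1 and gave no adjusted p for 11. Ghr, which was higher than in other glutamatergic neurons, was at 259 and 240 CPM against 672 and 515 (log2 difference -1.23). Of 21 neuropeptide and co-released factor genes tested, 2 were higher (Sst and Chga) and 6 lower, among them Ghrh and Pdyn, the prodynorphin gene, at 8.28 and 7.82 CPM against 35.7 and 37.7. DESeq2 called 0 of this list and gave no adjusted p for 18.

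Between the times, 41 genes were higher and 36 lower at ZT20 in Sim1 neurons (2 libraries each, 11439 tested, 0.673% called in either direction, 0.358% higher and 0.315% lower). The unadjusted p was under 0.05 for 1260 genes. Tafa1, encoding a secreted TAFA chemokine-like protein, was at 163 and 152 CPM at ZT8 and 440 and 561 at ZT20, a log2 change of 1.67 (chr6:96113154-96657198, plus strand; SE 0.153, edgeR adjusted p = 4.18e-06). Nnat, the imprinted neuronatin gene, was at 128 and 93.8 CPM at ZT8 and 234 and 248 at ZT20 (log2 change 1.16). Kcnh8, an ELK-family potassium channel gene, was at 14.2 and 20 CPM at ZT8 and 74.5 and 55.3 at ZT20 (log2 change 1.88). In each of these 3 genes the ZT20 libraries lay above both ZT8 libraries, as libraries of the times did not overlap for 42.2% of all genes tested.

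The makeup of the population differed between the times in the same genes. Cluster 8, in which each ZT20 nucleus carried Tafa1, held 2 nuclei at ZT8 and 23 at ZT20, and it gave 531 of the Tafa1 UMIs at ZT20, where the libraries had 1011 and 1076. In cluster 1, with 27 and 34 nuclei, Tafa1 was at 204 CPM at ZT8 and 420 at ZT20. Cluster 3, led in part by Kcnh8, held 2 nuclei at ZT8 and 45 at ZT20 and gave 102 of the Kcnh8 UMIs at ZT20, where the libraries had 171 and 106. In clusters 1, 2, 4 and 7, which held the most ZT8 nuclei (27, 7, 7 and 12), Kcnh8 was at 2.84, 0, 26.6 and 38.8 CPM at ZT8. At ZT20 it was at 8.31, 12.6, 55.7 and 38.7 there. The ZT8 values rest on 1, 0, 5 and 8 UMIs. The part of the cluster makeup in these changes was not tested. Nnat also rose in oligodendrocyte nuclei, by 0.67 (adjusted p = 0.018), in other glutamatergic neurons by 0.67 (1.56e-06) and in GABAergic neurons by 0.78 (2.41e-07).

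Ndnf, which encodes a secreted neurotrophic factor, was at 87.4 and 76.9 CPM at ZT8 and 20.5 and 13.03 at ZT20 (log2 change -2.25, SE 0.253, edgeR adjusted p = 6.25e-05). Nfia, a nuclear factor I gene, was at 491 and 349 CPM at ZT8 and 173 and 162 at ZT20 (log2 change -1.30). Both are among the leading genes of cluster 1, which held a larger share of the ZT8 nuclei. With cluster 1 left out, Nfia fell by 1.18 (adjusted p = 0.000172), and Ndnf no longer passed the filter on low counts. That fit kept cluster 7, which also held a larger share of the ZT8 nuclei. Clusters 1, 2, 4 and 7 held the most ZT8 nuclei. There Nfia was at 732, 21.4, 149 and 456 CPM at ZT8 and 621, 26.9, 147 and 352 at ZT20. The part of the cluster makeup in the fall of Nfia was not tested. Without clusters 4 and 7, Nfia fell by 1.59 but was not called (adjusted p = 0.229). Tafa1, Nnat, Ndst4, Dlk1, Zmym1, Kcnh8, Ndnf, Nfia and Plch1 kept their calls whichever single library was left out. Scg2 (log2 change 0.86), Trhde (0.89) and Kcnd2 (-0.61), which encodes an A-type potassium channel, did not: their adjusted p reached 0.191, 0.0561 and 0.711, without ZT20 replicate 2 in each case, and that of Kcnd2 was 0.153 without ZT20 replicate 1.

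The number of calls moved with depth and with the libraries. With 29 nuclei drawn from each library, 5 genes were called, and with each nucleus thinned to 2000 UMIs, 8. Leaving out ZT20 replicate 1 gave 41 calls and ZT20 replicate 2 gave 12, whereas leaving out ZT8 replicate 1 or 2 gave 334 and 232. DESeq2 called 23.

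Of 28 neuropeptide and co-released factor genes, 18 were tested and 2 were higher at ZT20, Scg2 and Pmch, with 6 at an unadjusted p under 0.05. Pmch had 0 UMIs at ZT8 and passed the filter on low counts only through the ZT20 libraries, so its call is a description. The median log2 change of this list was 0.72, against -0.0037 over all genes tested. DESeq2 called 1 of them and gave no adjusted p for 17. In other glutamatergic neurons the list also rose, from a sum of 1002 and 1008 CPM at ZT8 to 1412 and 1341 at ZT20. The change differed between the classes by a median of 0.15 on the log2 scale, with 0 of 24 genes tested called. Of 15 heat shock and ER chaperone genes, 13 were tested and 1 was called, with 8 at an unadjusted p under 0.05 and a median log2 change of 0.49; DESeq2 called 0 and gave no adjusted p for 9. The gene called was Hspa5, encoding the ER chaperone BiP, which rose by 0.71 on the log2 scale (edgeR adjusted p = 0.0235). Its call was kept only without ZT8 replicate 1 (adjusted p up to 0.385, without ZT20 replicate 2), and it rose by 0.70 in oligodendrocyte nuclei. The chaperone list summed to 1252 and 1280 CPM at ZT8 and 1756 and 1635 at ZT20 in Sim1 neurons. In other glutamatergic neurons it summed to 1352 and 1431 at ZT8 and 1841 and 1748 at ZT20. The change differed between the classes by a median of 0.059, with 0 of 14 genes tested called. Of 16 imprinted genes, 13 were tested and 2 were higher, Nnat and Dlk1, with a median of 0.14. Of 16 feeding and melanocortin receptor genes, 5 were tested and 0 were called by edgeR or DESeq2, with 2 at an unadjusted p under 0.05 and a median of 0.54.

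Of 24 core clock genes, 22 were tested and 0 were called by edgeR, with 3 at an unadjusted p under 0.05 and 0 called by DESeq2, which gave no adjusted p for 19 of them. Rora, a nuclear receptor of the clock loop, was at 1880 and 1400 CPM at ZT8 and 1171 and 1251 at ZT20 (log2 change -0.44, edgeR adjusted p = 0.16). Bhlhe40, which encodes the repressor DEC1, was at 30.7 and 15.4 CPM at ZT8 and 8.71 and 8.34 at ZT20 (log2 change -1.33, edgeR adjusted p = 0.203). For both, ZT8 replicate 1, with 29 nuclei, had the highest value. A fit without ZT8 replicate 2 rests on that library alone at ZT8 and cannot measure the spread there. Per2 was at 14.2 and 16.9 CPM against 21.3 and 18.2. The median log2 change of the clock list was 0.066. Of 18 sodium and calcium channel genes and 13 GABA receptor genes tested, 0 were called by edgeR or by DESeq2, with 2 and 3 at an unadjusted p under 0.05; DESeq2 gave no adjusted p for 5 and 4 of them.

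Pmch, the melanin-concentrating hormone precursor, had 0 UMIs in both ZT8 libraries and 45 and 30 at ZT20, at least 6.37-fold higher against a floor of 3 counts over the 2 ZT8 libraries. In oligodendrocyte nuclei Pmch was at 0 and 1.10 CPM at ZT8 and 46.4 and 44.8 at ZT20, above the 19.6 and 15.6 of Sim1 neurons. Dlk1 rose by 2.32 in Sim1 neurons and by 1.65 in oligodendrocyte nuclei, and Resp18 by 0.79 and 0.71. Pmch lost its call without ZT20 replicate 1 or replicate 2 (adjusted p = 0.449 and 0.244), and Resp18 without ZT20 replicate 2 (0.237). The part of free RNA in these 3 changes, and in those of Nnat and Hspa5, was not tested. Tafa1, Ndst4 and Scg2 did not pass the test in the shallower oligodendrocyte nuclei, where their log2 changes were 0.54, 0.46 and 0.34 (adjusted p = 0.535, 0.718 and 0.19). In thalamic-like neurons Tafa1 rose by 0.51 (adjusted p = 3.58e-09), Ndst4 by 0.51 (2.9e-05) and Scg2 by 0.69 (5.62e-11).

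Glial and thalamic markers were followed in the same sums. The 5 oligodendrocyte markers summed to 862 and 431 CPM at ZT8 and 372 and 449 at ZT20, and the 6 astrocyte markers to 376 and 225 against 206 and 216, with 0 of these markers at 0 in any library. The 9 thalamic markers summed to 3221 and 3178 CPM at ZT8 and 2681 and 2475 at ZT20. Their part in the time difference was not tested. With clusters 4 and 7 left out, 129 genes were called, 50 of them among the 77.

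**Figure D5:**
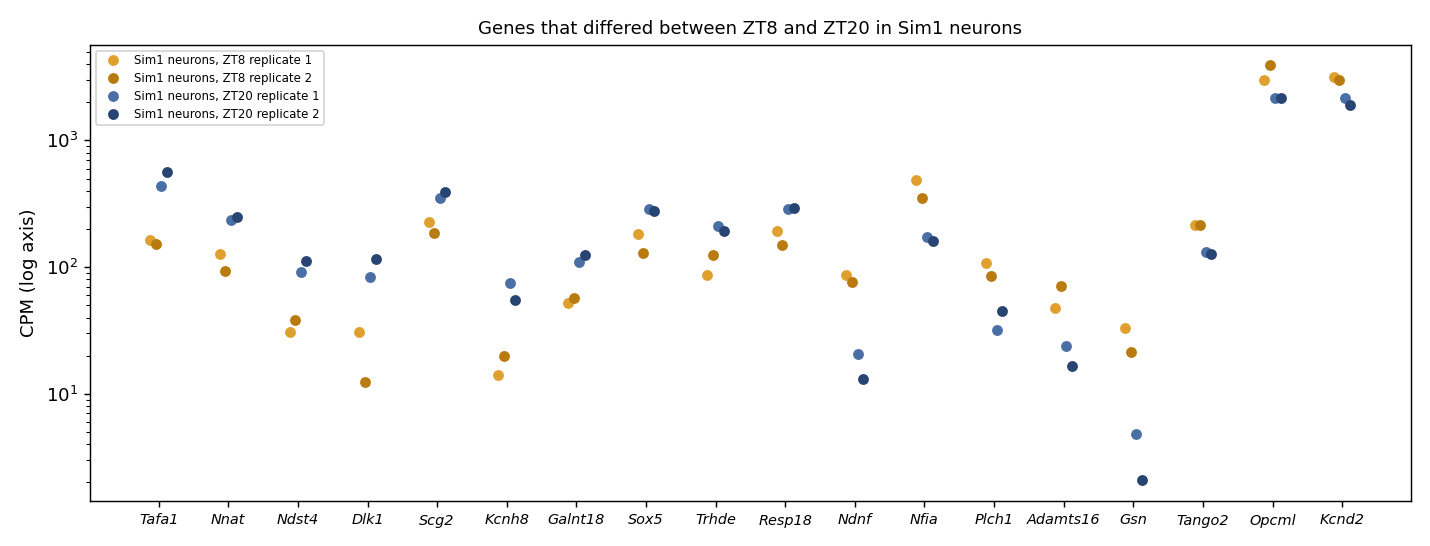
CPM of 18 genes in Sim1 neurons on a log axis, 1 point per library (ZT8 in orange, ZT20 in blue). Tafa1 moves from 152 to 163 CPM at ZT8 up to 440 to 561 at ZT20, and Ndnf from 76.9 to 87.4 down to 13.03 to 20.5.

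Whether a time difference was larger in Sim1 than in other glutamatergic neurons was tested with the class by time term. Of 13940 genes, 25 had a more positive and 31 a more negative change in Sim1 neurons (0.402% in either direction, 0.179% and 0.222%). Tafa1 rose in both classes, by 1.67 in Sim1 neurons and by 0.70 in other glutamatergic neurons, a difference of 0.97 (SE 0.154, edgeR adjusted p = 0.0021). Trhde, which encodes the enzyme that degrades thyrotropin-releasing hormone, rose by 0.89 in Sim1 neurons and fell by 0.46 in the comparison class, a difference of 1.36. Dlk1 differed by 2.02 and Kcnh8 by 2.08, while Kcnd2 differed by -0.74. Sfta3-ps stood apart: it was at 26.0 and 56.9 CPM at ZT8 and 91.9 and 77.7 at ZT20 in Sim1 neurons, and at 2.43 and 2.11 against 57.8 and 64.3 in other glutamatergic neurons, a difference of -3.73 (edgeR adjusted p = 4.4e-05). DESeq2 called 1 gene, Sfta3-ps, and without ZT20 replicate 1 or replicate 2 edgeR called 1 and 2 genes.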

How the data were processed

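Nuclei came from micropunched mouse PVN tissue, 2 libraries at ZT8 and 2 at ZT20, with 5 PVNs pooled in each. The authors deposited unnormalized matrices, in which each value is a UMI count. Per the file headers they were made with Cell Ranger 7.0.0, and the submitters' processing notes name Cell Ranger, STAR 2.6 and the build mm10. How introns were counted is not given in the sources used here. Members were chosen by the rule in the opening, and the library is the replicate, so counts were summed per library and class.

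Tests used edgeR 4.0.16 (filterByExpr, TMM, robust quasi-likelihood F tests, two-sided, Benjamini-Hochberg adjustment) in R 4.3.3, with DESeq2 1.42.0 as an alternative. The 16 genes the rule reads and mitochondrial genes stayed in library sizes and were left out before adjustment; comparisons with other glutamatergic neurons also left out Slc17a6, Slc17a7 and Tcf7l2. Standard errors are the log2 difference divided by the square root of F. The fits were tested on simulated data. Clusters came from scanpy 1.11.5 and leidenalg 0.10.2 (2000 variable genes, 20 components, 15 neighbours, resolution 0.5). Scrublet's automatic threshold marked 0 members, so the highest scores, in a share that rose with library size, served as an alternative; doublets were otherwise kept. Named genes are, by ascending p, up to 12 called genes in each direction that separated the times without overlap or moved 1 way in each library between classes, up to 4 per list of 24 lists, the markers and the core clock genes; a few others were chosen after their values were seen. Not all are printed, and some items are not reported here. The members and lists were chosen with earlier results of these data known.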

Additional observations from a re-analysis of the deposited data

Results flagged for a closer look

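The time difference between ZT8 and ZT20 differed between Sim1 neurons and other glutamatergic neurons, by edgeR's test of the class by time term at an adjusted p under 0.05, in the genes below, given with the log2 change in Sim1 neurons minus that in other glutamatergic neurons. It was more positive in Sim1 neurons for Trhde (1.36), Tafa1 (0.97), Dlk1 (2.02), Sema3a (2.32), Rbms1 (0.99), Shisa6 (1.21), Kcnh8 (2.08), Tmtc2 (0.80), Galnt18 (1.13), Kirrel3 (0.70), Spata13 (4.18), Ndst4 (1.30).

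It was more negative in Sim1 neurons for Sfta3-ps (-3.73), Adamts2 (-1.19), Kcnd2 (-0.74), Cdh18 (-0.73), Kcnk2 (-1.0), Hs3st5 (-0.94), Ndnf (-2.22), AC149090.1 (-0.67), Thsd4 (-0.97), Gpr149 (-1.91), Tango2 (-0.74), Nfib (-0.91). DESeq2 called Sfta3-ps and none of the others. Some of these genes were among the leading genes of clusters that were uneven between the times. Spata13 was one for cluster 9 (0 nuclei at ZT8, 8 and 11 at ZT20) and Sema3a for cluster 10 (1 and 0, 7 and 9). Kcnh8 was one for cluster 3 (1 and 1, 28 and 17), and Ndnf and Nfib for cluster 1 (13 and 14, 20 and 14). Dlk1 also rose in oligodendrocyte nuclei. The part of cluster makeup and of free RNA in these differences was not tested. Sfta3-ps kept its call whichever library was left out. Kcnh8 lost its call without ZT20 replicate 1 (adjusted p = 0.139), and the other genes when ZT20 replicate 1 or ZT20 replicate 2 was left out, each in turn. Without ZT8 replicate 1, Gpr149 was at -0.97 (adjusted p = 0.512), Nfib at -0.58 (0.0528) and Hs3st5 at -0.66 (0.0528).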

How the results depend on the processing

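Changing how Sim1 neurons were selected or fitted moved the counts of called genes. For ZT20 against ZT8 in Sim1 neurons (77 genes) the counts were 23 with DESeq2, 271 with no filter on low counts, 40 for nuclei with at most 1 Tcf7l2 UMI, 8 after thinning to 2000 UMIs, 5 with equal numbers of nuclei per library and 12 to 334 leaving out a library. For Sim1 neurons against other glutamatergic neurons (268) they were 136, 512, 255, 146, 110 and 113 to 261. For the difference of the ZT20 against ZT8 change between Sim1 and other glutamatergic neurons (56) they were 1, 125, 74, 13, 4 and 1 to 174. For Sim1 neurons against Sim1 neurons with Oxt, Avp, Crh or Trh (610) DESeq2 called 99 and thinning left 166; leaving out a library there would leave no residual degrees of freedom and was not run. Alternatives chosen after seeing the data gave, in the first 3 comparisons in turn, 5, 121 and 21 calls for Sim1 neurons with an Otp UMI and 129, 342 and 107 without the clusters led by glial genes; Sim1 neurons against other glutamatergic neurons had 530 calls in the ZT20 libraries alone and 138 in the ZT8 libraries alone. The cause of these shifts was not tested.

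The share of Sim1 neurons among neurons was higher at ZT20 in each setting tried, by 2.35 percentage points with at most 1 Tcf7l2 UMI, 1.89 after thinning to 5000 UMIs, 1.19 as a share of all kept nuclei, 0.824 for nuclei with an Otp UMI and 2.63 to 3.11 leaving out a library. The labels do not say whether the replicate numbers pair the libraries, and they were not treated as pairs. The correlation of same-numbered deviations was -0.025 over 11439 genes, which cannot decide the matter with 2 libraries per time. A fit with the replicate block called 196 genes between the times, among them all 77.

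The sign turned for some genes of Sim1 neurons against other glutamatergic neurons. With an Otp UMI, Grin3a was at -0.12 and Ephb1 at -0.21; after thinning, Gabra4 was at -0.17 and Vav3 at -0.052, and with equal numbers Vav3 was at -0.11. With at most 1 Tcf7l2 UMI, Lef1 was at -1.82, Vav3 at -0.94, Synpo2 at -0.88 and Slc1a3 at -1.27, and without the clusters led by glial genes they were at -1.02, -0.87, -0.70 and -1.73, with Slc1a2 at -0.54. In the difference of the time changes, with an Otp UMI, Ndnf was at 1.31, AC149090.1 at 0.028, Nfib at 0.058 and Grik3 at 0.12, and Grik3 was at 0.16 without the cluster led by Nfib. The ZT8 libraries, with 29 and 40 nuclei, limit what could be detected.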
